A study of Mus musculus with 2 samples.

Results

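The genes described here are 46 genes of DNA replication and cell division, followed in mouse intestinal organoids that received EGF, EREG or NRG1. They were found in the count table by matching its gene identifiers to GENCODE symbols of GRCm38, and all 46 of the 46, among 31053 genes in the table, were present. They fall into 19 genes of DNA replication and nucleotide supply, 24 genes of mitosis and 3 cyclins of the G1 phase. All 46 passed the filter on low counts and were among the 12130 genes tested.

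Organoids are cultures of gut epithelium grown in a gel from isolated crypts, here from C57BL/6J mice, 1 mouse in each of 2 experiments. All received ENR medium (EGF, Noggin and R-spondin 1) for 3 days, then no exogenous EGF for 24 h, then EGF, EREG or NRG1 at 100 ng/ml for 24 h, so that no group was left without a ligand at the end. EREG (epiregulin) and NRG1 (neuregulin 1) are relatives of EGF, and EGF served as the baseline. Each ligand had 3 libraries per experiment and 6 in all, 18 together, and nothing in the labels or methods says that the 3 came from separate cultures. The spread behind each p-value is therefore that of these libraries and may be technical.

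Replication begins in G1, when CDC6 and CDT1 load the ring-shaped MCM helicase onto origins of DNA, and proceeds in S phase, when the helicase opens the helix, the PCNA clamp holds the polymerases and flap endonuclease and ligase join the short pieces of the lagging strand. Many genes for these steps are transcribed together around the start of S phase under E2F factors. Genes for mitosis are transcribed later, in G2, when B-type cyclins activate CDK1, Aurora and Polo-like kinases build the spindle, and the anaphase-promoting complex then destroys cyclins and other proteins so that chromosomes can part. In the crypt, division is confined largely to stem cells and the transit-amplifying cells above them.

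RNA was read at its 3′ end and each molecule carried a unique molecular identifier (UMI), so a count is a number of distinct molecules. Libraries held 1311420 to 1891243 UMIs, of which the 46 genes took 0.440% to 0.653%. Levels below are normalized counts, that is, UMI counts scaled by edgeR's TMM factors, and fold changes are log2 values ± SE from edgeR's quasi-likelihood test with experiment and replicate number in the fit. The threshold for a gene to pass was a Benjamini-Hochberg adjusted p under 0.1, taken over all 12130 genes. Organoid RNA is a bulk measure, in which fewer dividing cells and less RNA per dividing cell cannot be told apart. All 7 epithelial markers looked up, Epcam, Cdh1, Krt8, Krt18, Krt19, Vil1 and Cdx2, were detected, while the summed level of 6 fibroblast markers stayed between 9.19 and 30.2 normalized counts. Of 5 immune and 3 endothelial markers, Cd3e, Cd79a, Cdh5 and Kdr had 0 UMIs in all 18 libraries. The immune markers Lyz2, Itgam and Ptprc had 59, 53 and 4 UMIs over all libraries, and the endothelial marker Pecam1 had 18. NRG1 replicate 1 of experiment 1 stood apart in the genes described here, with a summed replication level of 2741 against 3479 and 3704 in the other NRG1 libraries of that experiment, and the counts of replication genes that fell with NRG1 are also given without it.

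The first comparison asked how NRG1 organoids differed from EGF organoids over both experiments. The genes that passed were higher among those of mitosis and lower among those of replication. Of 24 mitosis genes, 7 rose with NRG1 and 0 fell, and the median log2 fold change was 0.21, with 22 of 24 values above 0. Of 19 replication genes, 3 fell and 0 rose, and the median was -0.17, with 16 of 19 values below 0. Of all genes tested, 6.06% rose and 5.41% fell, and their median was -0.014. At an unadjusted p under 0.05 were 12 of 24 mitosis and 8 of 19 replication genes, beside 2517 of all 12130 genes. DESeq2 called 7 mitosis genes higher and 1 replication gene lower, beside 691 and 491 of all 12130. The 3 G1 cyclins did not pass.

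**Figure D1:**
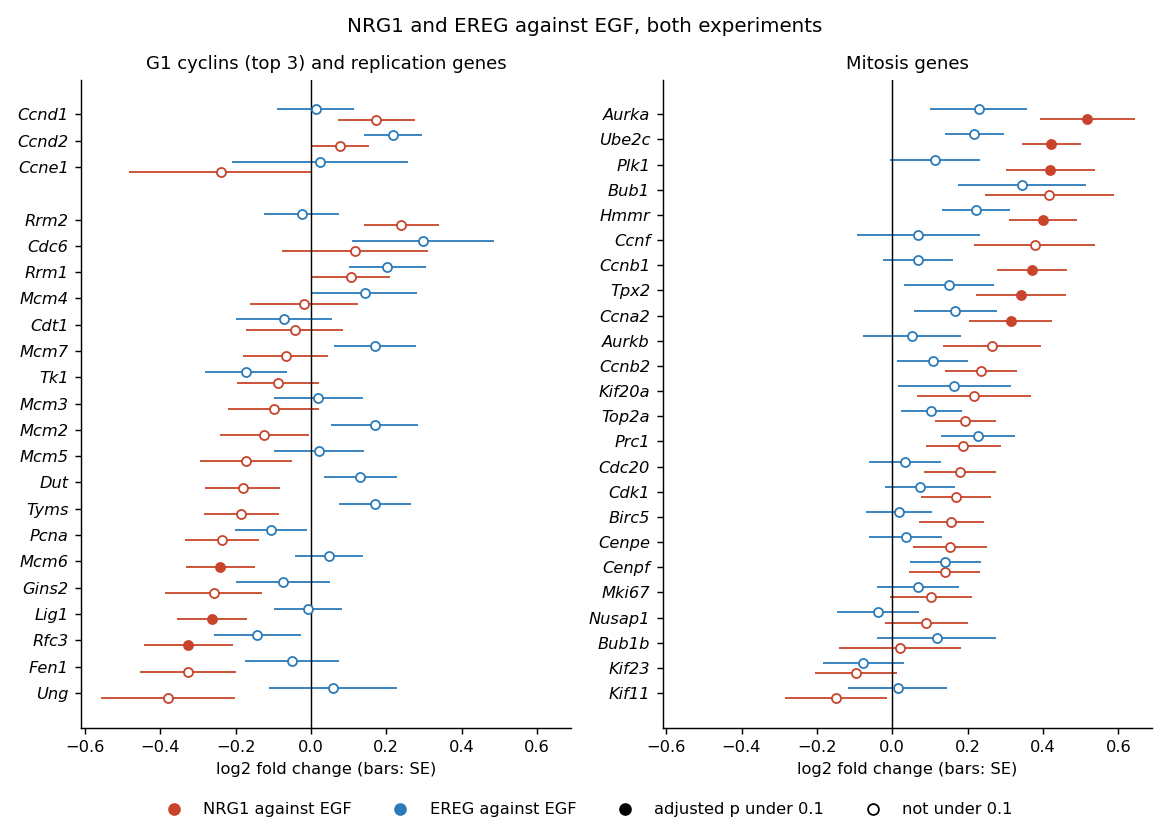
Log2 fold changes (x axis) of the 46 genes (y axis) for NRG1 against EGF in red and EREG against EGF in blue, over 6 libraries per ligand, with bars for the SE and filled points for an adjusted p under 0.1. The 7 filled points among the mitosis genes lie between 0.31 and 0.52 and the 3 among the replication genes between -0.33 and -0.24, while every EREG point is open.

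Among the mitotic cyclins and kinases, 4 of 9 rose and all 9 values were above 0. Aurka, the kinase that matures centrosomes and helps to build the spindle poles, had normalized counts of 98.0, 80.9 and 74.1 with NRG1 and 53.7, 70.9 and 71.1 with EGF in experiment 1. In experiment 2, Aurka was at 111, 121 and 128 with NRG1 and 81.3, 77.7 and 65.8 with EGF. All NRG1 libraries lay above all EGF libraries in each experiment, and the log2 fold change was 0.52 ± 0.13 (edgeR adjusted p = 0.00356). Its gap was wider in experiment 2, where the highest EGF library was 81.3 and the lowest NRG1 library 111, than in experiment 1.

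Ccnb1 encodes cyclin B1, the partner that switches on CDK1 at the entry to mitosis. Its level in experiment 1 was 264, 221 and 206 with NRG1 against 180.1, 185 and 169 with EGF, and in experiment 2 it was 236, 259 and 225 against 187, 179 and 188. The groups did not overlap in either experiment, and the EGF libraries of both experiments spanned a narrow range. Ccnb1 rose by 0.37 ± 0.093 on the log2 scale (edgeR adjusted p = 0.00447). Of the 61-base windows in the last 500 bases of its transcripts, 29.6% also occur in other genes, pseudogenes that had 0 UMIs here.

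Plk1, the Polo-like kinase that acts from mitotic entry to cytokinesis, was at 135, 115 and 160.4 with NRG1 and 97.3, 86.0 and 106 with EGF in experiment 1, and at 119, 151 and 119 and 92.2, 117 and 98.7 in experiment 2. The groups were apart in both experiments, by a small margin in experiment 2, where EGF replicate 2 was close to the lowest NRG1 libraries. The log2 fold change was 0.42 ± 0.12 (edgeR adjusted p = 0.0144). Ccna2, cyclin A2, which serves both S phase and G2, was at 219.9, 176 and 216 with NRG1 and 145, 161 and 150.5 with EGF in experiment 1. In experiment 2, the Ccna2 levels of NRG1, 172, 122 and 150.1, overlapped those of EGF, 137, 124 and 132. Its log2 fold change over both was 0.31 ± 0.11 (edgeR adjusted p = 0.0649), and the call was lost when any of 6 single libraries was left out. Ccna2 overlaps Exosc9 on the other strand, and the sources used here do not give whether strand was counted.

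Of the 6 genes of the spindle checkpoint, the anaphase-promoting complex and the kinetochore, 1 passed. This was Ube2c, the ubiquitin-conjugating enzyme that serves the anaphase-promoting complex, and it had the smallest adjusted p of the 46 genes. Ube2c stood at 492, 446 and 424 with NRG1 and 355, 327 and 367 with EGF in experiment 1, and at 578, 460.2 and 502 and 393, 351 and 364 in experiment 2. Every NRG1 library exceeded every EGF library of its experiment. The rise of Ube2c was 0.42 ± 0.078 on the log2 scale (edgeR adjusted p = 7.16e-05). Bub1, a kinase of the spindle checkpoint, had a log2 fold change as large, 0.42 ± 0.17, but it did not pass (edgeR adjusted p = 0.129), and its libraries ranged from 32.2 to 61.0 with NRG1 and from 27.2 to 42.8 with EGF. Cdc20, Cenpe, Cenpf and Bub1b had log2 values of 0.18, 0.15, 0.14 and 0.021 and did not pass. Cdc20, with 3597 UMIs, overlaps Elovl1, with 5817, on the other strand.

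Of 7 genes for spindle motors and the spindle midzone, 2 rose. Hmmr, which encodes a spindle-associated protein also known as a hyaluronan receptor, was at 272, 239 and 229 with NRG1 and 199, 187 and 194 with EGF in experiment 1. In experiment 2, Hmmr was at 301, 311 and 323 with NRG1 and 211, 206 and 269 with EGF, without overlap, although EGF replicate 3 lay above the other 5 EGF libraries. The log2 fold change was 0.40 ± 0.090 (edgeR adjusted p = 0.00144). Tpx2, which brings Aurora A to the spindle and activates it, was at 123, 114 and 92.4 against 94.6, 91.3 and 78.6 in experiment 1 and 127, 102 and 150.1 against 95.5, 93.9 and 103 in experiment 2. The Tpx2 groups overlapped in both experiments, and its rise of 0.34 ± 0.12 (edgeR adjusted p = 0.0626) was lost when any of 6 single libraries was left out. Kif11 and Kif23, motors that push the spindle poles apart and organize the midzone, were the only mitosis genes with values below 0, -0.15 and -0.10, and neither passed. Nusap1, Prc1 and Kif20a had values of 0.090, 0.19 and 0.22 and did not pass either.

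**Figure D2:**
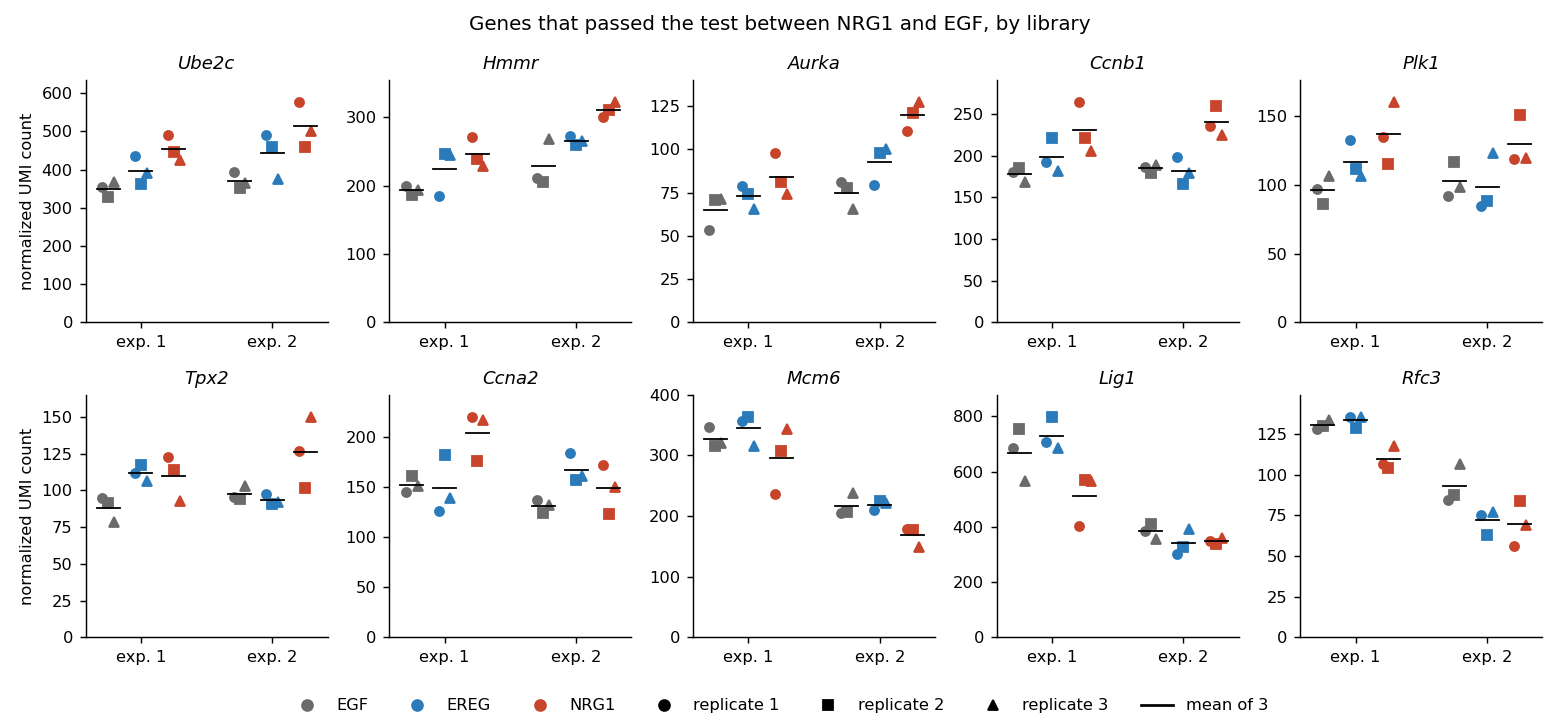
Normalized UMI counts (y axis, from 0) of the 10 genes that passed between NRG1 and EGF, by ligand and experiment (x axis), with 1 point per library, shaped by replicate number, and a line at the mean of 3. In Ube2c, Hmmr, Aurka, Ccnb1 and Plk1 every NRG1 point lies above every EGF point of its experiment, while in Mcm6, Lig1 and Rfc3 the EGF and EREG points of experiment 2 lie below those of experiment 1.

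The remaining mitotic cyclins and kinases were Ccnf, Aurkb, Ccnb2, Cdk1 and Birc5, with log2 values of 0.38, 0.26, 0.23, 0.17 and 0.16. None of these passed, and the smallest adjusted p among them was 0.123 for Ccnb2. Birc5, which encodes survivin, a subunit of the chromosomal passenger complex, was nevertheless separated, from 329 to 373 with NRG1 and from 301 to 324 with EGF in experiment 1, and from 206 to 232 and from 195 to 201 in experiment 2. In all, 6 of 24 mitosis genes had every NRG1 library above every EGF library in each experiment, where 2.84% of all genes tested did, and 0 had them below. Among the 19 replication genes, 0 were separated upward and 2, Pcna and Rfc3, downward, where 2.21% of all genes were. Here and in every other comparison, the shares of all genes include genes with few counts and were not matched for level.

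The proliferation markers themselves did not pass. Mki67, which encodes the Ki-67 protein that coats mitotic chromosomes and marks cycling cells, was at 239, 261 and 246 with NRG1 and 258, 294 and 206 with EGF in experiment 1, and at 250.4, 304 and 205 and 190.0, 256 and 202 in experiment 2. These levels overlapped, with a log2 fold change of 0.10 ± 0.11 (edgeR adjusted p = 0.663). Top2a, the topoisomerase that untangles chromosomes, had levels of 488, 506 and 555 against 518, 465 and 447 in experiment 1 and 553, 420.2 and 472 against 424, 374 and 393 in experiment 2. Its value of 0.19 ± 0.081 had an adjusted p of 0.136 in edgeR's test, and the NRG1 libraries were above the EGF mean of their experiment in 6 of 6.

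On the side of replication, the 3 genes that fell with NRG1 were Mcm6, Rfc3 and Lig1. Mcm6, a subunit of the MCM helicase, was at 236, 308 and 344 with NRG1 and 347, 316 and 320.2 with EGF in experiment 1, where the groups overlapped, and at 179, 177 and 149 and 204, 206 and 238 in experiment 2, where they did not. The log2 change was -0.24 ± 0.092 (edgeR adjusted p = 0.0949), a call lost in 11 of 18 fits that left out a library and under 7 of 10 other settings, DESeq2 and the fit without the replicate term among them. Rfc3, a subunit of the clamp loader that places PCNA on DNA, was at 107, 105 and 118 against 128, 130.4 and 134 in experiment 1 and 56.1, 83.8 and 69.1 against 84.5, 87.5 and 107 in experiment 2, with no overlap in either. The margin in experiment 2 was small, with NRG1 at 83.8 and EGF at 84.5 in the nearest pair. Rfc3 changed by -0.33 ± 0.12 (edgeR adjusted p = 0.0762). Lig1, the ligase that seals Okazaki fragments, was at 404, 568 and 565 against 684, 753 and 565 in experiment 1 and 349.5, 336 and 361 against 384, 409 and 356 in experiment 2, with NRG1 replicate 1 of experiment 1 the lowest of that experiment. The Lig1 groups overlapped in both experiments, and the change of Lig1 was -0.26 ± 0.092 (edgeR adjusted p = 0.0665).

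These calls lay near the threshold and were lost with many different single libraries left out. Of 18 such fits, that of Mcm6 was lost in 11, that of Rfc3 in 8 and that of Lig1 in 7. The call of Lig1 was also lost with DESeq2, and that of Rfc3 with every gene of at least 1 count tested. Mcm6, Rfc3 and Lig1 were each lost with only replicates 1 and 3, which shared a sequencing pool, and at an adjusted p under 0.05. Of the mitosis calls, Tpx2 was lost under both of these settings and Ccna2 at an adjusted p under 0.05 only. Without NRG1 replicate 1 of experiment 1, 0 of 19 replication genes passed as lower and the median moved from -0.17 to -0.10. Without EGF replicate 2 of experiment 2 the count was also 0, and without NRG1 replicate 3 of experiment 1 it was 7. Single-library omissions that left a count of 1 were EGF replicate 1 and NRG1 replicate 2 of experiment 1, and EGF replicates 1 and 3 and all 3 NRG1 replicates of experiment 2, while without EREG replicate 1 of experiment 1 it was 5. The 7 mitosis genes were fewer, at 5, without EGF replicate 3 of experiment 1 or EGF replicate 1 of experiment 2, and at most 8. Calls over all genes ranged from 1075 to 1546 in the 18 fits, beside 1391 with all libraries. Ube2c, Hmmr, Aurka, Ccnb1 and Plk1 passed with each of the 18 libraries left out in turn.

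Fen1 and Ung, which remove flaps of the lagging strand and uracil from DNA, had changes of the same size or larger, -0.33 ± 0.13 and -0.38 ± 0.18, but did not pass (edgeR adjusted p = 0.109 and 0.201). Pcna, the sliding clamp, was at 174.1, 214.8 and 226.6 with NRG1 and 227.4, 249.2 and 233.2 with EGF in experiment 1, and at 219, 220.4 and 230.0 and 294, 248 and 264 in experiment 2. Within each experiment every NRG1 library lay below every EGF library, in experiment 1 by less than 1 normalized count for the nearest pair, and its change of -0.24 ± 0.10 had an adjusted p of 0.133 in edgeR's test. Of the 9 licensing and initiation genes, only Cdc6 had a value above 0, 0.12. The helicase subunits other than Mcm6 had values of -0.12 for Mcm2, -0.10 for Mcm3, -0.018 for Mcm4, -0.17 for Mcm5 and -0.067 for Mcm7, and none passed. Gins2, a further helicase partner, and Cdt1 had -0.26 and -0.043.

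The 5 genes for nucleotide supply included 0 that passed. Rrm2, the small subunit of ribonucleotide reductase, was above the EGF mean of its experiment in 6 of 6 NRG1 libraries, with 190.5, 259 and 219.6 against 201, 188 and 157 in experiment 1 and 175, 164 and 179 against 141, 146 and 172 in experiment 2. Its log2 value of 0.24 ± 0.10 did not pass (edgeR adjusted p = 0.130), and that of its partner Rrm1 was 0.11. Tyms, Dut and Tk1, for thymidylate synthesis, dUTP removal and thymidine salvage, had values of -0.18, -0.18 and -0.088, and none passed.

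Summed over their genes, mitosis was higher relative to replication in each NRG1 library than in the EGF libraries of its experiment. The sum of the 24 mitosis genes divided by that of the 19 replication genes was 1.15, 1.12 and 1.13 in the EGF libraries of experiment 1 and 1.80, 1.27 and 1.24 in the NRG1 libraries. In experiment 2 it was 1.66, 1.53 and 1.50 with EGF and 2.28, 2.00 and 2.15 with NRG1. EREG libraries had 1.11, 1.08 and 1.32 in experiment 1 and 1.69, 1.69 and 1.71 in experiment 2. The lowest NRG1 library exceeded the highest EGF library in each experiment, while EREG replicate 3 of experiment 1 exceeded both of the lower NRG1 libraries there. In NRG1 replicate 3 of experiment 1 the replication sum itself, 3704, lay within the EGF range of 3509 to 3722. The ratio depends on which genes are summed, so only its differences among libraries can be read, and it was given no test because its genes were chosen with results of these data known.

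**Figure D3:**
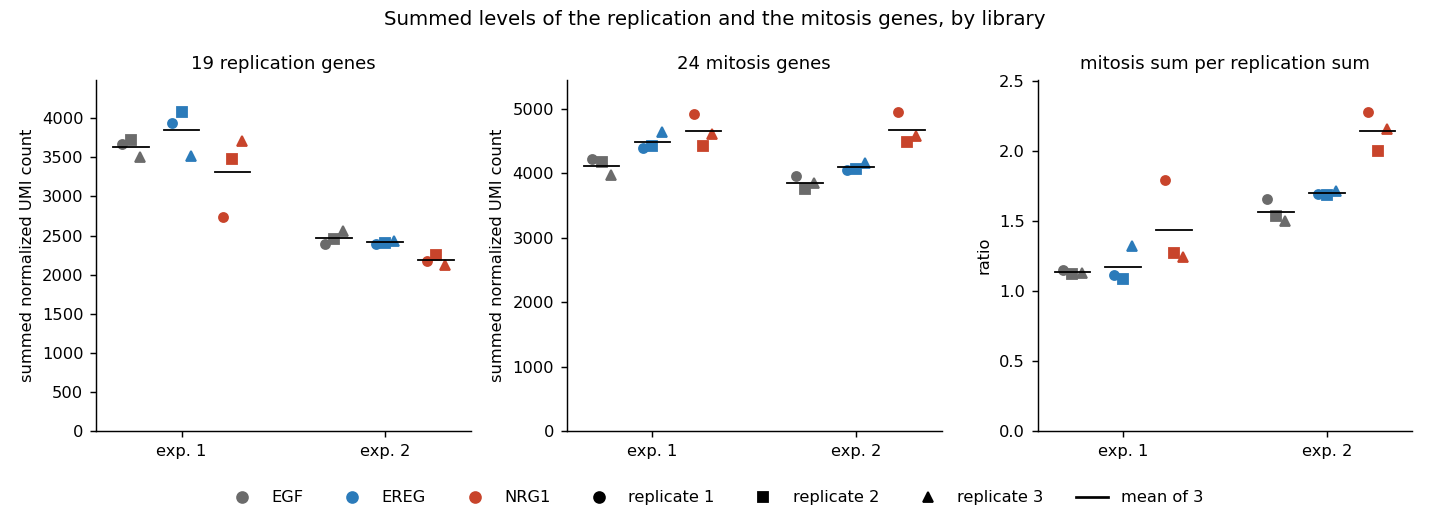
Summed normalized UMI counts of the 19 replication genes (left), of the 24 mitosis genes (middle) and their ratio (right), on y axes from 0, by ligand and experiment (x axis), with 1 point per library and a line at the mean of 3. The ratio is at most 1.15 with EGF and at least 1.24 with NRG1 in experiment 1, and at most 1.66 and at least 2.00 in experiment 2.

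Promoter windows of genes that passed between NRG1 and EGF are shown because the replication and mitosis genes differed in the motifs these hold. RefSeq promoters of GRCm38.p6, from 250 bases before to 50 after the start, were matched by symbol for 38 of the 46 genes. On both strands, an E2F-type motif (TTTCCCGC, TTTCGCGC, TTTGCCGC or TTTGGCGC), TTTGAA, the core of the cell cycle genes homology region, and the CCAAT box were searched. The E2F-type motif was in 8 of 17 replication promoters (47.1%), in 1 of 20 mitosis promoters (5%) and in 2.60% of all 27025 genes with a promoter. TTTGAA was in 2 of 17 replication (11.8%), 15 of 20 mitosis (75.0%) and 20.2% of all promoters, and CCAAT in 9 of 17 (52.9%), 18 of 20 (90.0%) and 41.1%. Each sequence runs 5′ to 3′ on the strand of its gene, and capitals mark the motif, as spelled or as its reverse complement. For the mitosis genes the TTTGAA motif is shown, and for Ccnb1, which holds none, a CCAAT box, and for the replication genes the E2F-type motif.
Ube2c, GRCm38.p6 chr2:164769889-164769916, plus strand: gagggttgcaaTTCAAAcgcgggcggcg
Hmmr, GRCm38.p6 chr11:40733413-40733440, minus strand: gttgaggtaaaTTTGAAttcaggcgagc
Aurka, GRCm38.p6 chr2:172370522-172370549, minus strand: aaaggagaaccTTTGAAttgtaacggct
Ccnb1, GRCm38.p6 chr13:100786569-100786596, minus strand: aacccgcggcgCCAATgggaagagagcg
Plk1, GRCm38.p6 chr7:122159454-122159481, plus strand: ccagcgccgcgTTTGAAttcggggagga
Mcm6, GRCm38.p6 chr1:128359798-128359825, minus strand: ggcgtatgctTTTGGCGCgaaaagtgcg
Lig1, GRCm38.p6 chr7:13278842-13278869, plus strand: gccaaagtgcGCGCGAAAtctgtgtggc
Rfc3, GRCm38.p6 chr5:151651201-151651228, minus strand: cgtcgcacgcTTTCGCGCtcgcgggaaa
In Mcm6 the capitals overlap a second motif, the reverse complement of TTTCGCGC, that begins 4 bases further on, and in Rfc3 the reverse complement of TTTCCCGC follows in the same window. Tpx2 and Ccna2 were not matched to a promoter. A match is a description of these letters and does not show that a factor binds there.

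Genes outside the 46 were read in the same comparison. Of 52 other replication genes, 1 rose and 2 fell, and the median was -0.13, with 43 of 52 below 0. Among those that passed were Dscc1, for a clamp loader that acts in sister chromatid cohesion, at -0.69 ± 0.17, and Pold2, a subunit of polymerase delta, at 0.25 ± 0.092. Of 64 other mitosis genes, 6 rose and 0 fell, and the median was 0.10, with 48 of 64 above 0. These were led by Cdc25b, the phosphatase that activates CDK1, at 0.70 ± 0.17 (edgeR adjusted p = 0.00250), Cdca3 at 0.36 ± 0.10, Anln, the anillin of the cytokinetic ring, at 0.49 ± 0.16, and Tacc3, for a protein of spindle microtubules, at 0.36 ± 0.12. The shares that passed, 6 of 64 upward and 2 of 52 downward, stand beside 6.06% and 5.41% of all genes.

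Of all genes tested, 5.41% fell and 6.06% rose with NRG1, and of 17 genes that control the step from G1 to S phase, 1 fell and 0 rose. The gene that fell was Cdk6, a kinase that works with D-type cyclins, at -0.54 ± 0.10 (edgeR adjusted p = 4.03e-05). E2f1, an activator of replication genes, had -0.57 ± 0.25 and Cdk4, the sister kinase of Cdk6, -0.16 ± 0.080, and neither passed. Of 17 tested genes for CDK inhibitors and other brakes on division, 7 rose and 0 fell, with a median of 0.27. Among them were Cdkn1a, which encodes p21, at 0.70 ± 0.10 (edgeR adjusted p = 7.54e-05), Cdkn2b, which encodes p15, at 0.52 ± 0.13, Tob1 at 0.48 ± 0.13 and Ccng1, a cyclin G gene, at 0.48 ± 0.13.

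Other features of the libraries moved with NRG1. The 5 crypt stem cell markers all had values below 0, and 4 of them, Olfm4, Slc12a2, Ascl2 and Lgr5, fell, with a median of -0.54. Their summed level ranged from 1492 to 4015 normalized counts with NRG1 and from 2306 to 6145 with EGF. Of 7 epithelial markers 3 rose, and of 6 absorptive cell markers 3 rose and 1 fell. These marker counts stand beside 6.06% of all genes that rose and 5.41% that fell. The mitochondrial share of UMIs was 0.600% to 0.732% with NRG1 and 0.979% to 1.20% with EGF in experiment 1, and 0.565% to 0.578% and 0.596% to 0.604% in experiment 2. The nuclear RNA Malat1 took 0.170% to 0.171% of UMIs with NRG1 against 0.0774% to 0.0844% with EGF in experiment 2, and 0.0244% to 0.0368% against 0.0280% to 0.0404% in experiment 1. The part of these in the changes of the 46 genes was not tested.

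EREG organoids were compared with EGF organoids in the same fit, to ask whether a different ligand moved the same genes. None of the 46 genes passed, as 0.00824% of all genes did, which was 1 gene. At an unadjusted p under 0.05 were 5 of the 46, beside 662 of all 12130 genes, and DESeq2 called 0 of the 46. The mitosis genes had a median of 0.10 with 22 of 24 values above 0, and the replication genes 0.021 with 11 of 19 above 0. The smallest adjusted p was 0.718, shared by Ube2c at 0.22 ± 0.078 and Ccnd2, cyclin D2, at 0.22 ± 0.077. Ube2c stood at 436, 362 and 392 with EREG in experiment 1 and 492, 460.5 and 376 in experiment 2, overlapping the EGF levels in both. Since NRG1 and EREG were compared with the same EGF libraries, these values and those of NRG1 are not independent.

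NRG1 was next set against EREG directly. Of the mitosis genes 3 rose, where 6.57% of all genes did, and of the replication genes 1 rose and 4 fell, where 4.77% of all genes fell. Tyms, thymidylate synthase, which makes the thymine nucleotide for DNA, was at 183, 249 and 263 with NRG1 and 278, 289 and 310.4 with EREG in experiment 1, and at 111, 101 and 101 and 140.1, 142 and 127 in experiment 2. All NRG1 libraries lay below all EREG libraries in both experiments, and the log2 difference was -0.35 ± 0.10 (edgeR adjusted p = 0.0119). Dut, the dUTPase that keeps uracil out of DNA, was at 239, 298 and 395 with NRG1 and 344, 338 and 349 with EREG in experiment 1, and at 215, 210.1 and 164 and 302, 294 and 242 in experiment 2. These overlapped in experiment 1 only, through NRG1 replicate 3, with a log2 difference of -0.31 ± 0.10 (edgeR adjusted p = 0.0345). Mcm6 and Lig1 were lower by -0.29 ± 0.091 and -0.26 ± 0.092 as signed log2 differences. Mcm2 and Ung had signed differences of -0.29 ± 0.12 and -0.44 ± 0.18 and did not pass.

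Rrm2 was the replication gene that rose against EREG, by 0.26 ± 0.10 (edgeR adjusted p = 0.0874), with EREG levels of 174, 212 and 165 in experiment 1 and 148, 139 and 149.8 in experiment 2. In experiment 2 all NRG1 libraries were above all EREG libraries, and in experiment 1 the groups overlapped. The mitosis genes that rose were Ccnb1 by 0.30 ± 0.092, Plk1 by 0.31 ± 0.12 and Ube2c by 0.20 ± 0.077 (edgeR adjusted p = 0.0259, 0.0966 and 0.0950). Without NRG1 replicate 1 of experiment 1, 1 mitosis gene rose and 1 replication gene fell. The count of mitosis genes that rose was also 1 without EGF replicate 1 or 2 or EREG replicate 2 or 3 of experiment 1, and without EGF replicate 1 or EREG replicate 2 of experiment 2. Over all genes, single omissions left 1092 to 1532 calls, beside 1375 with all libraries. Libraries of the pool that held replicates 1 and 3 alone gave 0 calls. Without NRG1 replicate 3 of experiment 1, 8 replication genes fell. The calls of Plk1, Ube2c, Rrm2 and Lig1 were each lost when any of 7 or more single libraries was left out, whereas that of Tyms was kept in all 18 such fits. Without the replicate term in the fit, the calls of Plk1, Ube2c, Rrm2 and Lig1 against EREG were also lost.

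Within each experiment the NRG1 response was fitted again, with 3 libraries against 3. In experiment 1, 5 mitosis genes rose (Ccna2, Ccnb1, Plk1, Ube2c and Hmmr), where 4.21% of all genes did, and 1 replication gene, Lig1, fell, where 3.78% of all genes did. In experiment 2, 5 mitosis genes rose (Ccnb1, Aurka, Ube2c, Cenpf and Hmmr) and so did the G1 cyclin gene Ccnd1, where 4.15% of all genes did, and 1 replication gene, Mcm6, fell, where 2.89% of all genes did. The medians of the mitosis genes were 0.23 and 0.24, and those of the replication genes -0.10 and -0.21. Without NRG1 replicate 1, the replication median of experiment 1 was 0.031, on the other side of 0, and 2 mitosis genes rose. Single omissions left between 1 and 6 mitosis genes higher in experiment 1, with 1 without EGF replicate 1 and 2 without EGF replicate 2 or 3. The fall of Lig1 was lost without EGF replicate 1 or 2 or NRG1 replicate 1. In experiment 2 single omissions left between 2 and 5, with 2 without EGF replicate 1 and 3 without EGF replicate 2, and the fall of Mcm6 was lost in 5 of 6. Over all genes they left 549 to 958 calls in experiment 1, from 969, and 516 to 665 in experiment 2, from 855. Without the replicate term, the calls of Hmmr in experiment 1 and of Mcm6, Ccnb1 and Cenpf in experiment 2 were lost.

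The direction of each gene was compared between the experiments, which have no libraries in common. Of 24 mitosis genes, 18 were higher with NRG1 in both experiments, 1 was lower in both and 5 differed in direction. Of 19 replication genes, 15 were lower in both, 2 were higher in both and 2 differed. The shares with the same direction, 79.2% and 89.5%, compare with 60.3% of all genes tested, 60.9% of the other mitosis genes and 59.6% of the other replication genes. The share of all genes includes genes with few counts and was not matched for level. The figure for the replication genes rested on NRG1 replicate 1 of experiment 1. Without it 7 were lower in both, 3 higher in both and 9 differed, a share of 52.6% beside 58.5% of all genes, while the mitosis genes again had 79.2%. Over the other 11 omissions of an EGF or NRG1 library, between 12 and 15 replication genes were lower in both and between 17 and 20 mitosis genes higher in both. For EREG the shares were 50.0% of the mitosis genes, 42.1% of the replication genes and 48.6% of all genes. Cenpf, a kinetochore protein gene, was among those that differed, at -0.076 ± 0.11 in experiment 1 and 0.36 ± 0.12 in experiment 2, and the difference of these did not pass (edgeR adjusted p = 0.265).

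The test of the difference itself was passed by 1 of the 46 genes, Ccnd1, where 1.44% of all genes passed. Ccnd1 encodes cyclin D1, which couples growth factor signals to the exit from G1. It was at 216, 249 and 253 with NRG1 and 294, 263 and 267 with EGF in experiment 1, and at 303, 276 and 304 and 202, 174 and 222 in experiment 2. NRG1 libraries were below all EGF libraries in experiment 1 and above them all in experiment 2, and the log2 fold changes were -0.19 ± 0.11 and 0.56 ± 0.12. Their difference was 0.76 ± 0.17 (edgeR adjusted p = 0.00417), and it passed in each of the 12 fits that left out an NRG1 or EGF library. With EREG, Ccnd1 was at 252, 292 and 261 in experiment 1 and 221, 191 and 216 in experiment 2, overlapping EGF in both. Each experiment came from 1 mouse, and experiment and mouse cannot be told apart. Ccnd1 overlaps LTO1 on the other strand.

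Ccnd2 and Ccne1, cyclins D2 and E1, did not pass for NRG1, with log2 values of 0.078 ± 0.077 and -0.24 ± 0.24. Ccne1 had few UMIs, with 7.82 to 34.3 normalized counts with NRG1 and 12.5 to 37.3 with EGF. For EREG in experiment 1, 0 of the 46 genes passed, where 0% of all genes did. There, 5 of the 46 and 513 of all 12130 genes had an unadjusted p under 0.05, and DESeq2 called 0 of the 46. In experiment 2, 1 of the 46 passed for EREG, where 0.998% of all genes did. This was Ccnd2, at 1733, 1594 and 1423 with EREG and 1194, 1112 and 1325 with EGF, which did not overlap, and its rise was 0.39 ± 0.092 (edgeR adjusted p = 0.0208). The call was lost without EGF replicate 1 or 2 or EREG replicate 1 or 2 of that experiment, and without the replicate term. In experiment 1 the Ccnd2 value was 0.036 ± 0.091, and the difference between the experiments did not pass (edgeR adjusted p = 0.408). No gene of the 46 passed that test for EREG in edgeR's test, where 0.0742% of all genes did. At an unadjusted p under 0.05 were 4 of the 46, beside 903 of all 12130 genes, and DESeq2 called 0 of the 46.

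**Figure D4:**
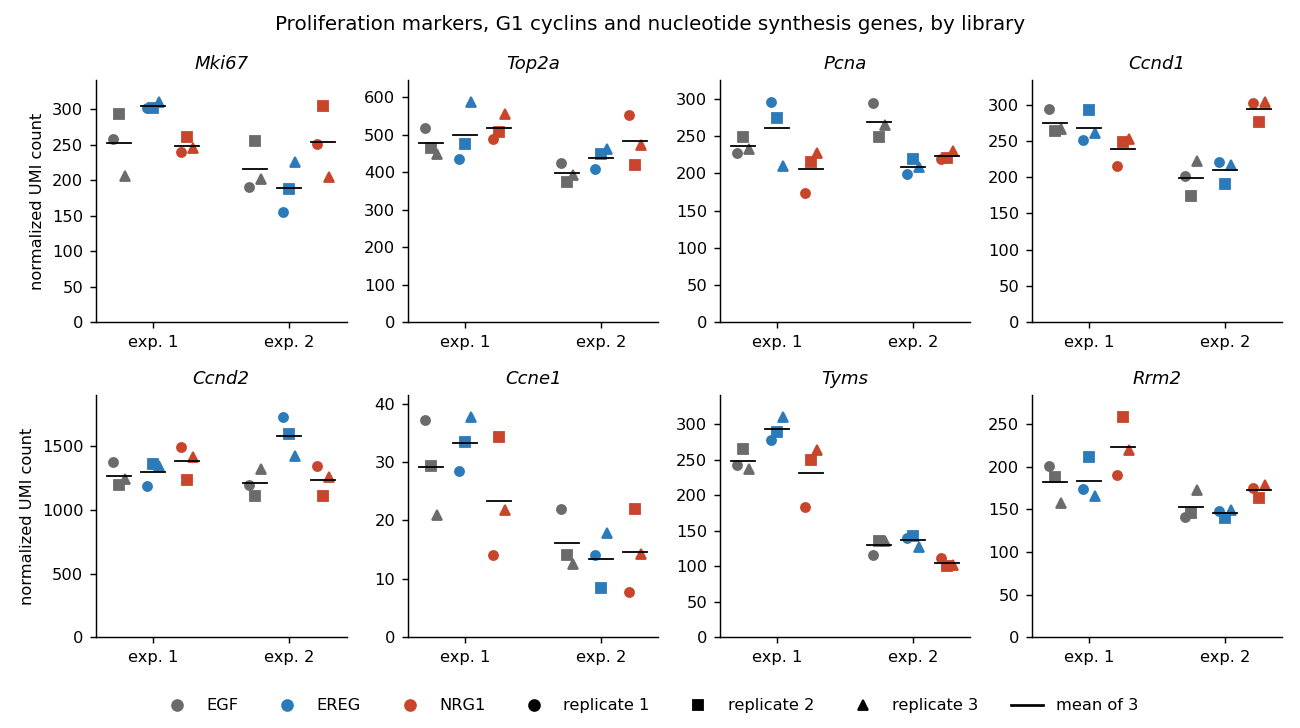
Normalized UMI counts (y axis, from 0) of 8 genes by ligand and experiment (x axis), with 1 point per library, shaped by replicate number, and a line at the mean of 3. Ccnd1 is lower with NRG1 than with EGF in experiment 1 and higher in experiment 2, in experiment 2 Ccnd2 is higher with EREG than with EGF or NRG1, and Mki67 overlaps among the ligands.

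The last comparison set the EGF organoids of the experiments against each other, since every other comparison within an experiment starts from them. EGF organoids of experiment 2 had lower levels of 19 of the 46 genes than those of experiment 1, and higher levels of 0, where 16.3% of all genes were lower and 17.2% higher. The replication genes accounted for 14 of the 19, with a median log2 difference of -0.60. Only 3 of 24 mitosis genes were lower, and their median was 0.0037. Of the 3 G1 cyclins, Ccnd1 and Ccne1 were lower, by -0.46 ± 0.12 and -0.84 ± 0.33 as signed log2 differences. The other replication genes were alike, with 35 of 52 lower, 0 higher and a median of -0.68, and of the other mitosis genes 17 of 64 were lower and 7 higher.

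The widest difference was that of Fen1, on the lagging strand. Fen1 was at 158, 137 and 155 in experiment 1 and 50.5, 69.1 and 77.1 in experiment 2, and Lig1 ranged from 565 to 753 in experiment 1 and from 356 to 409 in experiment 2, with no overlap in either gene. The differences were -1.20 ± 0.17 and -0.80 ± 0.11 (edgeR adjusted p = 9.00e-09 and 1.14e-09). Tyms, the gene with the largest fall in nucleotide supply, differed by -0.94 ± 0.13 and Mcm4 by -1.01 ± 0.20, and Mcm2 by -0.90 ± 0.16, each lower in 3 of 3 libraries. All 6 MCM genes were lower. Pcna and Tk1 were the replication genes with values above 0, 0.19 ± 0.12 and 0.23 ± 0.14, and neither passed, as Cdc6, Cdt1 and Rrm2 did not.

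Among the mitosis genes, Kif11, the motor that drives spindle bipolarity, was at 100.0, 145 and 109 and 52.7, 63.7 and 61.3, and Birc5 at 324, 301 and 322 and 195, 198 and 201. They differed by -0.99 ± 0.18 and -0.67 ± 0.12. Top2a differed by -0.26 ± 0.11, a call that DESeq2 did not make and that 4 of 6 single omissions removed, and Ccne1 was lost in 3 of 6. Ube2c, Hmmr, Aurka, Ccnb1 and Plk1, which rose with NRG1, had baselines that did not pass between the experiments, with values of 0.076, 0.24, 0.20, 0.053 and 0.091.

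**Figure D5:**
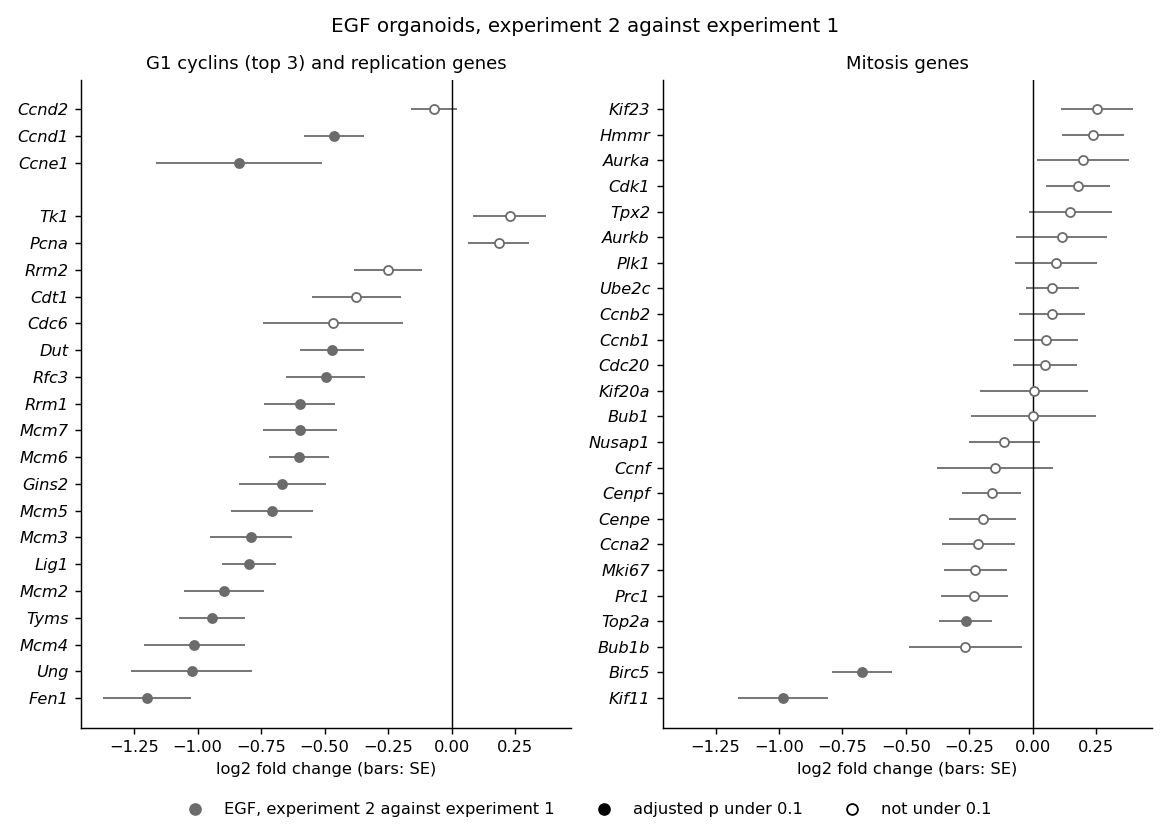
Log2 fold changes (x axis) of the 46 genes (y axis) in EGF organoids of experiment 2 against experiment 1, 3 libraries each, with bars for the SE and filled points for an adjusted p under 0.1. Of 19 replication genes 14 are filled and left of 0, while 21 of 24 mitosis genes are open.

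The crypt stem cell markers were also lower in experiment 2, 5 of 5, with a median of -1.22, and 5 of 7 epithelial markers were higher. Of 6 absorptive cell markers 4 were higher and 1 lower, with a median of 0.32. These marker counts stand beside 17.2% of all genes that were higher and 16.3% that were lower. The mitochondrial share in EGF libraries fell to 0.596% to 0.604%, from 0.979% to 1.20%, and that of Malat1 was 0.0774% to 0.0844% against 0.0280% to 0.0404% in experiment 1. These features differ between the same 2 mice and experiments, and they cannot be told apart from the replication genes in this design. With 1 mouse in each experiment, no p-value here measures the spread among mice.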

How the data were processed

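RNA of mouse intestinal organoids was sequenced by a 3′ method with unique molecular identifiers (Bulkseq). Per the labels and the study's methods, the authors used STAR 2.7.8a and GRCm38 and deposited raw UMI counts per gene for 18 libraries. The submitters' processing notes also name MultiQC and DESeq2. The annotation release and the strand setting are not given in the sources used here. Ligand, experiment and replicate number of each library came from the deposited sample sheet, since the labels give 2 sequencing pools, in which replicate 2 was sequenced apart from replicates 1 and 3.

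Of 31053 genes, 30934 had a symbol. A reporter row with 6 counts (2.05e-05% of all UMIs) was left out. The 12130 genes tested had 5 or more counts in total and a normalized count averaging 1 or more. Counts were fitted with edgeR 4.0.16 (limma 3.58.1, R 4.3.3) by robust quasi-likelihood with TMM factors. Ligands were compared with terms for experiment and replicate number, following the study's design (12 residual degrees of freedom). Comparisons within and between experiments came from a fit over 6 groups of ligand and experiment with replicate number, with 10 residual degrees of freedom. P-values were adjusted by Benjamini-Hochberg over all genes tested. The SE was taken as the size of the log2 fold change over √F.

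The 46 genes, the other lists and the comparisons were chosen with earlier results of these data known. Shown in full were Mki67, Pcna, Top2a and the G1 cyclins, the genes of the 46 with the smallest adjusted p in each comparison, and of each other list at most 4, taken by adjusted p in NRG1 against EGF. 1 gene that this rule names is not reported here. Windows of 61 bases in the last 500 bases of each gene's transcripts were searched for copies in other genes. Alternatives were DESeq2 1.42.0 (Wald test), other size factors, filters, thresholds and samples, fits without the replicate term, and each library left out. The scripts were tested on simulated data. Precision is limited by 1311420 to 1891243 UMIs per library. Replicates of a group differed by more than sampling noise in all 18 pairs (chi-square per degree of freedom 1.54 to 4.48).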

Additional observations from a re-analysis of the deposited data

Results flagged for a closer look

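Over each ligand's 6 libraries, both experiments together, 147 sets of values for the 46 genes and their sums were screened. In 10 of them a library had a gap to the nearest other above Dixon's 95% critical share of the range. For libraries of 1 population chance gives about 1 in 20, or 7.35. The 6 libraries mix 2 experiments that differ in level, so this rate need not hold. A library apart within its experiment can be missed, as was the replication sum of NRG1 replicate 1 of experiment 1. Levels are normalized counts, and for each of the 10 the gap's share of the range is given first. Pcna in NRG1 replicate 1 of experiment 1 had 0.729, with a level of 174 against 215 in the nearest NRG1 library. Top2a in EREG replicate 3 of experiment 1 had 0.626 (587 against 474). In the same library Nusap1 had 0.633 (222 against 171) and Prc1 had 0.665 (262 against 192), all of them high. Hmmr in EREG replicate 1 of experiment 1 had 0.684 (184 against 245), and Hmmr in EGF replicate 3 of experiment 2 had 0.710 (269 against 211). Bub1b in EREG replicate 2 of experiment 2 had 0.683 (66.9 against 48.5). Cdc20 in EGF replicate 3 of experiment 1 had 0.681 (155 against 189), and Cenpf in EGF replicate 1 of that experiment had 0.663 (385 against 316). Kif23 in NRG1 replicate 3 of experiment 2 had 0.648 (223 against 163).

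The response of Ccnd1 to NRG1 differed between the experiments by 0.76 on the log2 scale (edgeR adjusted p = 0.00417), with every NRG1 library below every EGF library in experiment 1 and above in experiment 2.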

How the results depend on the processing

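Unless a median or all genes are named, a value is the number of the 46 genes that passed. Of the values that passed, 0 reversed under the alternatives run, while the replication median of experiment 1, which had no test, moved from -0.10 to 0.031 without NRG1 replicate 1. For NRG1 against EGF, 10 genes passed, and 6 with replicates 1 and 3 only (1 sequencing pool) or 5 at an adjusted p under 0.05. DESeq2 gave 8, other size factors 9 and 10, looser and stricter filters 8 and 12, and a fit of both ligands alone 14. Calls over all genes moved as well, from 1391 to between 590 and 1572 over the alternatives other than omissions. For NRG1 against EREG, 8 passed, and 5 with every gene with at least 1 count tested, 4 with only the 2 ligands compared, 4 at an adjusted p under 0.05 and 0 with replicates 1 and 3 only. Over all genes 1375 passed, and 526 to 1458 under such alternatives. For EREG against EGF in experiment 2, 1 passed, and 2 with DESeq2 and 2 with each experiment fitted apart. Over all genes 121 passed there, and 29 to 339 under such alternatives.

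Samples with the same replicate number and experiment had a median correlation of deviations from group means of 0.12 (0.019 to 0.167, 18 pairs, 10 over 0.1). Samples of the same experiment with different numbers had -0.063 (-0.126 to 0.059, 36 pairs, 0 over 0.1). Those with the same number in different experiments had 0.036 (-0.065 to 0.171, 27 pairs, 9 over 0.1). Samples that share a number were thus weakly more alike, and whether pairing or the sequencing pool accounts for this was not tested. Replicate number stayed in the fit because the study's design has it, and some calls rest on it, as given beside them. Without the replicate block the counts were 9 for NRG1 against EGF, 4 for NRG1 against EREG, 4 (from 7) for NRG1 against EGF in experiment 2 and 0 for EREG against EGF in experiment 2. With the block set within each experiment the last was 2.

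With 1 library left out, the counts ranged from 6 to 13 for NRG1 against EGF, from 3 to 11 for NRG1 against EREG and from 0 to 1 for EREG against EGF. Within experiment 1 they ranged from 1 to 7 for NRG1 and were 0 for EREG, and within experiment 2 from 3 to 7 for NRG1 and from 0 to 3 for EREG. The difference between experiments had 1 gene in every such fit for NRG1 and 0 to 2 for EREG, and EGF organoids of experiment 2 against experiment 1 had 17 to 21. The count of replication genes lower with NRG1 in both experiments, 15, ranged from 7 to 15, an alternative chosen after seeing the data. The causes were not tested. Depth limits genes such as Ccne1, and 3 libraries of 1 mouse limit each experiment.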
